A study of Mus musculus with 12 samples.

Results

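The nuclear-encoded genes of the mitochondrial respiratory chain were examined in B16 cells, an established mouse melanoma line. They were taken by symbol from a count table of 23336 genes: every symbol beginning with Nduf, Uqcr, Cox4 to Cox8 or Atp5, together with Sdha, Sdhb, Sdhc and Sdhd, and leaving out symbols marked as pseudogenes. This gave 90 members. By their known roles they comprise 36 subunits and 5 assembly factors of complex I, 4 subunits of complex II, 8 of complex III, 19 of complex IV and 15 of complex V. The other 3 answer to the rule only by their symbols. Cox7a2l encodes a factor that joins complexes into supercomplexes, Atp5s (now Dmac2l) a coupling factor of ATP synthase, and Cox4nb (now Emc8) a part of the membrane complex of the endoplasmic reticulum, which is no respiratory chain gene.

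The cells carried 1 of 2 guide RNAs, introduced with Cas9 by a short transfection, and were then subcloned. Adar-null cells received Adar sgRNA 1, and control cells received a non-targeting guide, sgRNA 5. Both kinds of cell were kept for 36 h with either interferon-beta (IFNb, 1000 U per mL) or its vehicle, phosphate-buffered saline containing albumin. The study was set up to follow how the loss of Adar, the enzyme that edits adenosine in double-stranded RNA, alters the answer to interferon. The 4 groups, each of 3 libraries, were Adar-null cells given IFNb, Adar-null cells given vehicle, control cells given IFNb and control cells given vehicle. An interferon-gamma arm named in the design is not analysed here. Each genotype rests on a single guide and its subcloned cells, so genotype and subclone cannot be told apart. Whether replicate libraries stem from separate cultures is not in the labels, and p-values therefore measure the spread between libraries only, which may be technical. In bulk RNA, fewer cells of a type and less RNA per cell cannot be told apart.

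Complexes I to IV pass electrons from NADH and succinate through ubiquinone and cytochrome c to oxygen, and complexes I, III and IV pump protons while doing so. Complex V, the ATP synthase, lets the protons flow back through its membrane part at the c ring, whose turning drives ATP synthesis in the F1 head while the peripheral stalk holds the head still. Most of the subunits are encoded in the nucleus and imported, and they are built together with a few subunits encoded by mitochondrial DNA, which are not analysed here. Transcription factors of the NRF1, ETS and YY1 families are known to bind near the start sites of many of these nuclear genes.

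The letters these factors bind are shown for the members that hold them, since they are a feature of the genes that the choice by symbol did not use. RefSeq windows of 300 bases (250 before to 50 after the annotated start, mouse build GRCm38.p6) were matched to 72 of the 87 members in the complexes. Both strands were read. The NRF1 letters GCGCATGCG were held by 9 of the 72 (12.5%), against 2.61% of 17492 protein-coding genes. The YY1 letters AAGATGGCG were held by 8 others (11.1%), against 2.14% of the protein-coding genes. The ETS letters CCGGAAGT were held by 5 members (6.94%), against 5.69%. The NRF1 and YY1 letters were settled on after matches to longer forms of them had been seen. Their shares are therefore a description and not an independent comparison. A match is a description of the sequence, and no match says only that these letters are not in the window. The members with the NRF1 letters were Atp5g2, Atp5k, Atp5l, Cox6a1, Ndufa11, Ndufa8, Ndufaf4, Uqcr11 and Uqcrc1, and those with the YY1 letters were Atp5j, Atp5j2, Atp5sl, Ndufa9, Ndufc1, Ndufs4, Ndufs6 and Ndufs7. The 6 stretches shown lie wholly before the only start listed for the gene. They are given 5′ to 3′ on the strand of the gene with the NRF1 letters in capitals, which Atp5l holds as the reverse complement.
Atp5g2, c ring of complex V, chr15:102671061-102671109, minus strand: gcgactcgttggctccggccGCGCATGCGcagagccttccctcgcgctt
Atp5k, membrane part of complex V, chr5:108434421-108434469, minus strand: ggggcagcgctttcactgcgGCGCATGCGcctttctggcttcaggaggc
Cox6a1, complex IV, chr5:115349092-115349140, minus strand: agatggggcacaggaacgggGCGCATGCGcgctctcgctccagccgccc
Ndufa11, complex I, chr17:56717682-56717730, plus strand: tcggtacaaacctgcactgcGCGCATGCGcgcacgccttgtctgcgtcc
Ndufaf4, complex I assembly, chr4:24897950-24897998, plus strand: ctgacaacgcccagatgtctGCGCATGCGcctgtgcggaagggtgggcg
Atp5l, membrane part of complex V, chr9:44920955-44920992, minus strand: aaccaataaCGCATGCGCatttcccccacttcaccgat

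The libraries held 5375649 to 7153480 counts. Levels below are TMM-scaled CPM, the counts of a gene relative to the size of its library, and a difference is called at an adjusted p under 0.05 in edgeR's quasi-likelihood test with Benjamini-Hochberg adjustment over the 11561 genes tested. The ribosomal RNA precursor Rn45s held 25.8% to 28.5% of the counts in Adar-null cells given IFNb, 21.1% to 22.9% in Adar-null cells given vehicle, 24.9% to 25.3% in control cells given IFNb and 21.5% to 22.4% in control cells given vehicle. Adar itself averaged 408 ± 21.2 CPM in Adar-null cells given IFNb, 59.5 ± 5.26 CPM in Adar-null cells given vehicle, 384 ± 7.47 CPM in control cells given IFNb and 72.2 ± 2.05 CPM in control cells given vehicle (SD, n = 3 each). Counts of whole transcripts do not test a deletion made by Cas9. All 8 melanocyte markers were detected, and their summed level was 10629 to 11362 CPM in Adar-null cells given IFNb, 15817 to 16014 CPM in Adar-null cells given vehicle, 13987 to 14318 CPM in control cells given IFNb and 16212 to 17082 CPM in control cells given vehicle. Their part in the results on respiratory genes was not tested. The summed level of 10 leukocyte markers stayed between 0.356 and 2.10 CPM in every library, with Cd3e and Ncr1 among those at 0 in all groups, and that of 11 markers of fibroblasts, endothelium and epithelium between 3.43 and 7.92 CPM.

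Of the 90 members, 79 passed the filter on low counts and were tested. The 11 that did not were Ndufs5, Cox7b2 and Cox8c, each with 0 counts in all libraries, and Cox4i2, Cox8b, Cox6b2, Cox7a1, Atp5l, Ndufb4, Ndufa4l2 and Atp5k, with 1 to 77 counts in all libraries together. A group total of 0 allows a level of up to 0.157 to 0.173 CPM, depending on the group. Ndufs5, a structural subunit of complex I, is used by every cell with that complex, so its 0 is given as a listed value and not as absence. Atp5k and Atp5l, which hold the ATP synthase dimer together, had 9 and 5 counts in Adar-null cells given IFNb, 27 and 12 in Adar-null cells given vehicle, 25 and 11 in control cells given IFNb, and 16 and 15 in control cells given vehicle. Together the members held 0.396% to 0.406% of all counts in Adar-null cells given IFNb, 0.654% to 0.659% in Adar-null cells given vehicle, 0.572% to 0.584% in control cells given IFNb and 0.659% to 0.681% in control cells given vehicle. The share in Adar-null cells given IFNb lay below that of every other library. Atp5b alone made up 15.6% of the members' counts.

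Summed over the members of a complex, the level in Adar-null cells fell with IFNb in complexes I to V and not among the complex I assembly factors. The subunits of complex I summed to 1235, 1245 and 1308 CPM in Adar-null cells given IFNb, against 1768, 1807 and 1758 CPM in Adar-null cells given vehicle. Control cells given IFNb had 1601, 1552 and 1635 CPM, against 1843, 1803 and 1801 CPM in control cells given vehicle. Complex IV summed to 415, 416 and 438 CPM in Adar-null cells given IFNb, against 771, 799 and 754 CPM in Adar-null cells given vehicle. As log2 ratios of the group means, the sums of Adar-null cells given IFNb to those with vehicle came to -0.49 for complex I, -0.72 for complex II, -0.41 for complex III, -0.87 for complex IV and -0.73 for complex V. The same ratios in control cells were -0.19, -0.03, -0.11, -0.16 and -0.12. The assembly factors of complex I came to 0.19 in both genotypes. These sums carry no test.

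**Figure D1:**
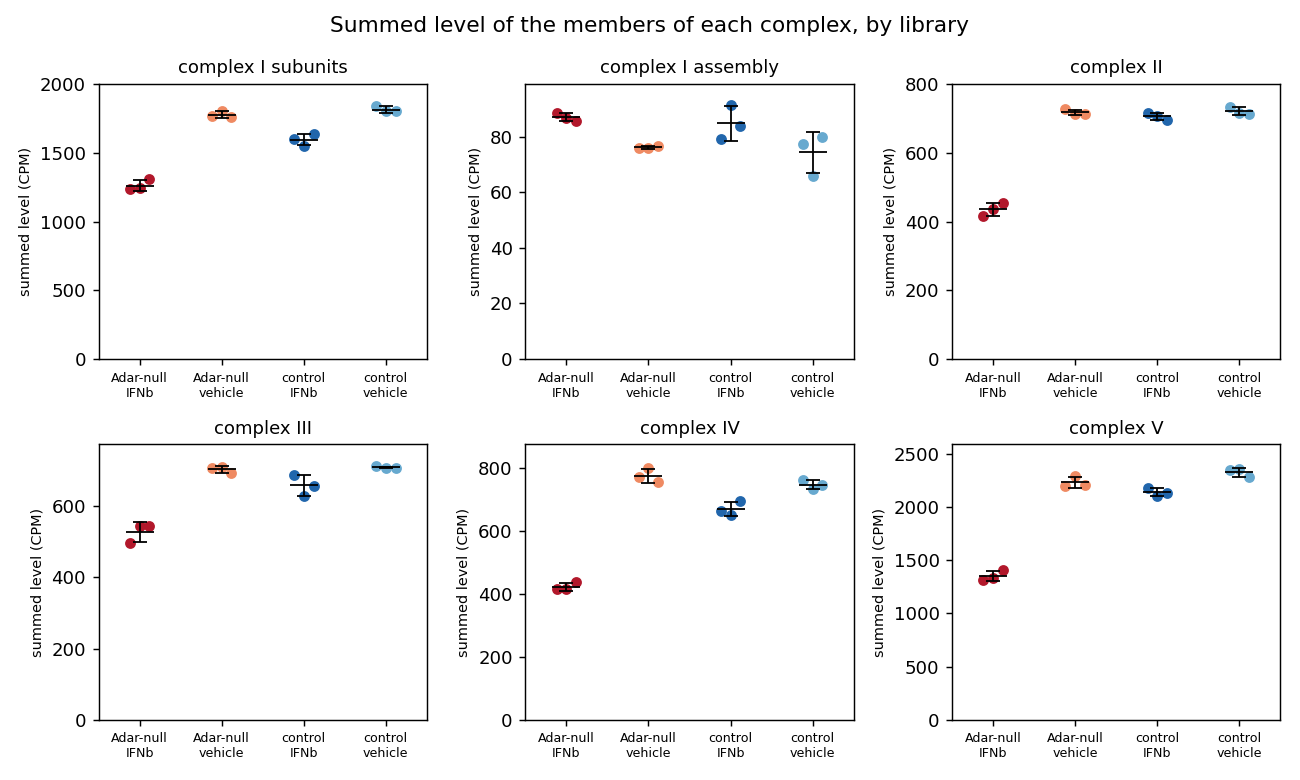
Summed level of the members of each complex in CPM (vertical axes, starting at 0) for the 4 groups. Each point is a library, and bars are the mean and SD of 3 libraries. The Adar-null libraries with IFNb sum to 415 to 438 CPM for complex IV and lie below all other libraries in every panel other than complex I assembly.

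The response of Adar-null cells to IFNb was a broad fall. Of the 79 members tested, 64 were lower, 3 were higher and 12 were not called when Adar-null cells given IFNb were set against Adar-null cells given vehicle. Over all genes tested, 35.7% were lower and 36.6% higher (72.3% called), so the members' share of lower calls was above the background and their share of higher calls below it. The median log2 fold change of the members was -0.66, beside 0.01 over all genes. Groups did not overlap, with every IFNb library lower, for 69 members, where 36.2% of all genes did so. Of the 79 members, 11 fell at least 2-fold, a share near that of all genes (11.7%). These were Uqcrh, Cox6b1, Cox7a2, Atp5g3, Ndufb3, Cox7b, Ndufv3, Ndufa4, Cox6c, Atp5j2 and Uqcr11.

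By complex, the calls in Adar-null cells were 29 of 34 subunits lower for complex I (median -0.51), 4 of 4 for complex II (median -0.77), 7 of 8 for complex III (median -0.37) and 11 of 13 for complex V (median -0.76). For complex IV, 10 of the 11 widely expressed subunits were lower (median -0.85), 5 of them at least 2-fold. Within complex I, 6 of 7 core subunits (median -0.52) and 23 of 27 supernumerary subunits (median -0.51) were lower. Within complex V, 5 of 5 subunits of the F1 head and central stalk and 4 of 4 of the peripheral stalk were lower. The 5 assembly factors of complex I divided into 2 higher, 1 lower and 2 not called. In none of the complexes was a subunit called higher, apart from Cox6a2 of complex IV. Cox6a2 passed the filter only through the groups in which it was higher, so it is described by its counts further on, and the counts of 3 higher members in Adar-null cells, between genotypes with IFNb and in the interaction each include it.

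In control cells fewer members were called, and their changes were smaller. When control cells given IFNb were set against control cells given vehicle, 28 members were lower, 4 were higher and 47 were not called, beside 26.5% lower and 26.5% higher among all genes (53% called). The 28 include Cox6a2, which passed the filter only through the groups in which it was higher. With library size alone as the scale, the same comparison gave 37 members lower and 3 higher, and over all genes 3796 lower and 2469 higher, in place of 3066 lower and 3067 higher. DESeq2 gave fewer, with 21 members lower and 4 higher, and over all genes 2548 lower and 2650 higher. The members' median was -0.12, and the medians of the complexes lay between -0.14 and -0.05, with 0.12 for the assembly factors. On leaving out 1 library the median of the assembly factors ran from -0.05, without control vehicle library 2, to 0.24, and that of complex III from -0.14 to -0.0099, without control IFNb library 2. Groups were apart, with every IFNb library lower, for 29 members, Cox6a2 among them, where 28.5% of all genes were.

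Both responses can be set side by side, with no test of overlap. Of the 64 members lower in Adar-null cells, 26 were also lower in control cells, 36 were not called there, and 2, Atp5a1 and Sdhd, were higher there. Atp5sl and Ndufaf1 were higher in both. Over all genes, 35.7% were lower in Adar-null cells and 26.5% in control cells, and such joint counts were not made. Cox6a2 was higher in Adar-null and lower in control cells, calls that carry the limit of the filter given above. The difference between the responses was tested as an interaction, the change with IFNb in Adar-null cells less the change in control cells. It was lower for 52 members and higher for 3, beside 30.7% lower and 28.6% higher among all genes (59.3% called), with a median of -0.46 for the members and 0.01 for all genes. DESeq2 gave 45 members lower and 2 higher, beside 3138 lower and 2877 higher among all genes. With limma-voom these were 52 and 2, beside 3527 and 3336. All 52 members lower by edgeR were among the 64 that fell in Adar-null cells, a comparison that shares the Adar-null libraries with the interaction.

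**Figure D2:**
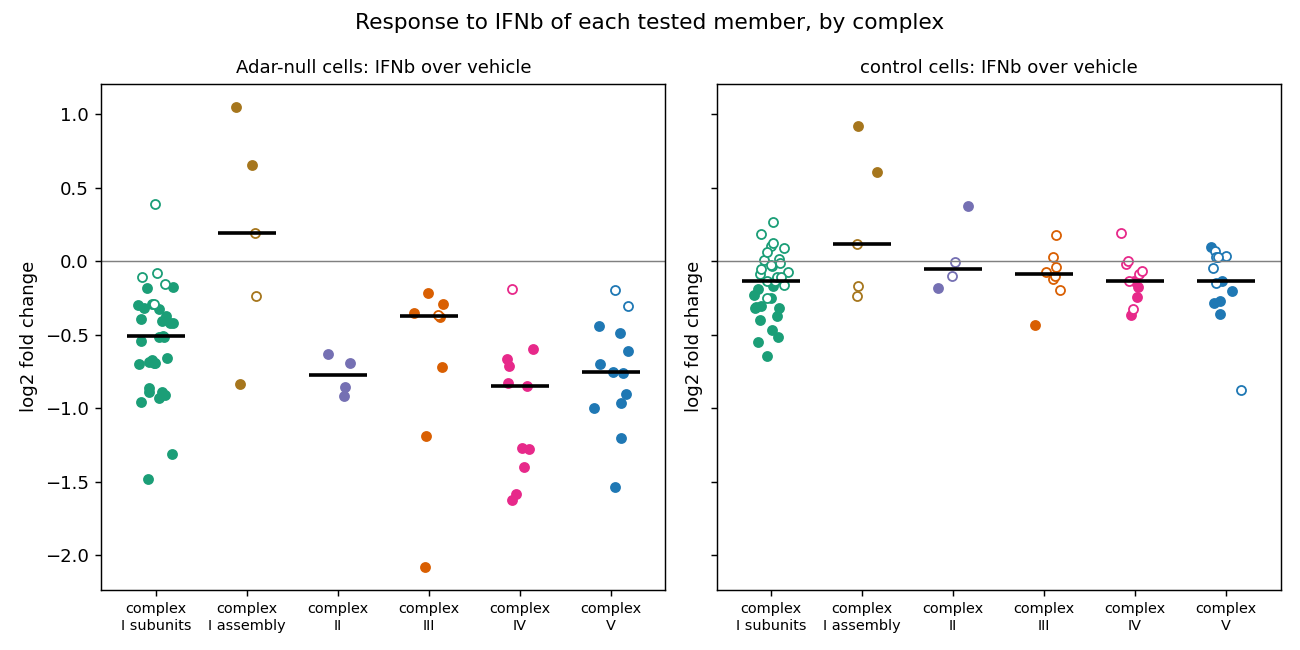
Log2 fold change with IFNb over vehicle (vertical axis) of each tested member, by complex, in Adar-null cells (left) and control cells (right). Filled points were called, open points were not, and black bars are medians of the points drawn, which leave out Cox6a2. In Adar-null cells the medians of complexes II, IV and V lie at -0.77, -0.85 and -0.76, and in control cells no complex has a median below -0.14.

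Gene positions below are those of RefSeq on GRCm38.p6 and span the whole gene, exons and introns. The core of complex I carries the flavin and iron-sulfur centres that take electrons from NADH. Ndufs1, the largest core subunit, had 116, 117 and 119.9 CPM in Adar-null cells given IFNb, against 162, 154 and 157 CPM in Adar-null cells given vehicle. In control cells it had 148, 138 and 137 CPM with IFNb, against 172, 156 and 155 CPM with vehicle. The groups did not overlap in either genotype. The log2 fold change was -0.42 ± 0.05 (SE) in Adar-null cells and -0.19 ± 0.05 in control cells, and the interaction of -0.23 ± 0.07 was called (adjusted p = 0.0027). Ndufs3 was the core subunit that was not called, at 11.7, 8.42 and 9.18 CPM in Adar-null cells given IFNb and 9.42, 6.63 and 6.24 CPM in Adar-null cells given vehicle, which overlap. It was called higher with the replicate block (0.39, adjusted p = 0.0475), with the size factors of DESeq2 in edgeR (0.39, adjusted p = 0.0496), and without Adar-null IFNb library 2 (0.48, adjusted p = 0.0325) or Adar-null vehicle library 1 (0.58, adjusted p = 0.011).

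Supernumerary subunits surround that core and stabilise it. Ndufb3 (chr1:58586397-58595964), a small membrane-arm subunit, had 6.06, 7.07 and 4.75 CPM in Adar-null cells given IFNb, against 14.6, 17.0 and 18.7 CPM in Adar-null cells given vehicle. Control cells had 13.5, 13.7 and 16.4 CPM with IFNb, against 19.2, 19.96 and 12.8 CPM with vehicle. The Adar-null groups were apart and the control groups overlapped. The fall in Adar-null cells was -1.48 ± 0.17 (adjusted p = 1.4e-13), the value in control cells -0.25 ± 0.14 (adjusted p = 0.12), and the interaction -1.23 ± 0.22 (adjusted p = 9.4e-07). In control cells Ndufb3 was called lower without control vehicle library 3 (-0.42, adjusted p = 0.0113) and with library size alone (-0.33, adjusted p = 0.0461).

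Ndufv3 (chr17:31520115-31531326), a small subunit of the NADH-binding module, fell in both genotypes. It had 42.6, 44.2 and 44.0 CPM in Adar-null cells given IFNb, against 101, 114 and 110.0 CPM in Adar-null cells given vehicle. Control cells had 75.8, 73.7 and 76.1 CPM with IFNb, against 117, 111 and 124 CPM with vehicle. Both pairs of groups were apart. The log2 fold changes were -1.31 ± 0.07 and -0.64 ± 0.06, and the interaction of -0.67 ± 0.09 was called (adjusted p = 2.0e-10).

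Other subunits of the same complex had values nearer 0. Ndufa9, a subunit near the ubiquinone site, had 98.5, 97.1 and 103 CPM in Adar-null cells given IFNb and 98.0, 107 and 112 CPM in Adar-null cells given vehicle. These groups overlap, and the log2 fold change of -0.08 ± 0.06 was not called (adjusted p = 0.18), though it was with library size alone (-0.17, adjusted p = 0.00553). Ndufb9, another supernumerary subunit, had 108, 95.8 and 111 CPM in Adar-null cells given IFNb, against 111, 125 and 117 CPM in Adar-null cells given vehicle, groups that barely miss each other. Its calls of -0.17 ± 0.06 in Adar-null cells and -0.17 ± 0.05 in control cells were each lost when 1 library was left out. Without Adar-null IFNb library 2 the Adar-null value was -0.12 (adjusted p = 0.0834), and without Adar-null vehicle library 2 it was -0.13 (adjusted p = 0.0668). In control cells the value was -0.14 without IFNb library 2 (adjusted p = 0.0519) and -0.13 without vehicle library 1 (adjusted p = 0.0594). The complex I values of Adar-null cells thus spanned -1.48 to 0.39.

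The 5 factors that assemble complex I moved in both directions. Atp5sl (now Dmac2, chr7:25619414-25625550), needed to join parts of the membrane arm, had 17.2, 13.8 and 13.6 CPM in Adar-null cells given IFNb, against 7.02, 6.90 and 7.49 CPM in Adar-null cells given vehicle. Control cells had 10.5, 10.6 and 9.45 CPM with IFNb, against 5.80, 3.79 and 6.68 CPM with vehicle. Every IFNb library was above every vehicle library. It rose by 1.05 ± 0.17 in Adar-null cells and 0.92 ± 0.19 in control cells, and the interaction of 0.13 ± 0.26 was not called (adjusted p = 0.68). Ndufaf1, a chaperone of early assembly, rose by 0.65 ± 0.14 and 0.61 ± 0.14, with an interaction of 0.05 ± 0.20. Ndufaf2, which acts late in assembly, fell in Adar-null cells to 4.17, 7.67 and 6.96 CPM with IFNb, against 10.6, 11.9 and 11.8 CPM with vehicle (-0.84 ± 0.18). Its lower level in Adar-null than in control cells given IFNb (-0.55, adjusted p = 0.0056) and its interaction (-0.67, adjusted p = 0.015) were lost without Adar-null IFNb library 1, at -0.37 (adjusted p = 0.0824) and -0.48 (adjusted p = 0.0895). In addition, 64.8% of the 37-base words of Ndufaf2 occur in other annotated genes, so its counts are uncertain. Ndufaf3 and Ndufaf4 were not called in any comparison, though Ndufaf3 was lower in Adar-null cells with library size alone (-0.33, adjusted p = 0.0262).

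Complex II oxidises succinate and is the only complex whose subunits are all encoded in the nucleus. All 4 subunits fell in Adar-null cells given IFNb. Sdha, the flavoprotein, fell by 0.63 ± 0.05, Sdhb, the iron-sulfur subunit, by 0.70 ± 0.05, and Sdhc, a membrane anchor, by 0.92 ± 0.07 on the log2 scale. In control cells Sdhb was lower by a small amount (-0.18 ± 0.05, adjusted p = 0.00054), while Sdha (-0.10 ± 0.05) and Sdhc (-0.00 ± 0.06) were not called. Sdha was called lower in control cells with library size alone (-0.17), upper-quartile scaling (-0.13) and limma-voom (-0.10).

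Sdhd (chr9:50596340-50603849), the other membrane anchor, moved in opposite directions in the genotypes. It had 56.2, 54.4 and 55.5 CPM in Adar-null cells given IFNb, against 102, 101 and 96.8 CPM in Adar-null cells given vehicle. Control cells had 148, 140.2 and 134 CPM with IFNb, against 116, 105 and 104 CPM with vehicle. The highest Adar-null IFNb library lay far below the lowest of all other groups, and the control IFNb libraries lay above all others. The log2 fold changes were -0.85 ± 0.06 (adjusted p = 2.5e-24) and 0.38 ± 0.05 (adjusted p = 2.1e-09), and the interaction was -1.23 ± 0.08 (adjusted p = 9.7e-27).

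Complex III passes electrons from ubiquinol to cytochrome c. Uqcrh (chr4:116066965-116075070), the hinge protein at cytochrome c1, had 4.55, 6.31 and 4.75 CPM in Adar-null cells given IFNb, against 20.7, 24.0 and 21.7 CPM in Adar-null cells given vehicle. Control cells had 20.5, 21.7 and 24.6 CPM with IFNb and 18.3, 19.1 and 21.9 CPM with vehicle. The Adar-null IFNb libraries were apart from all others, and the control groups overlapped. The change in Adar-null cells was -2.08 ± 0.16 (adjusted p = 5.7e-24), the largest fall of any member there. The value in control cells was 0.18 ± 0.12 (adjusted p = 0.20), and the interaction was -2.26 ± 0.20 (adjusted p = 3.0e-19).

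The larger subunits of complex III fell less. Uqcrc1 and Uqcrc2, its core proteins, fell by 0.29 ± 0.05 and 0.35 ± 0.05 on the log2 scale in Adar-null cells, and Uqcrfs1, the Rieske iron-sulfur protein, by 0.72 ± 0.06. None of these was called in control cells. There Uqcrc1 was called lower with library size alone (-0.11, adjusted p = 0.0461), and Uqcrfs1 with library size alone (-0.18, adjusted p = 0.00357), with upper-quartile scaling (-0.13, adjusted p = 0.0246) and without control IFNb library 1 (-0.16, adjusted p = 0.0208). Uqcrq (chr11:53427922-53430831), a small membrane subunit, fell less in Adar-null than in control cells. It had 128, 138 and 136 CPM in Adar-null cells given IFNb, against 157, 166 and 145 CPM in Adar-null cells given vehicle. Control cells had 108, 98.4 and 115 CPM with IFNb, against 149, 139 and 147 CPM with vehicle. Within each genotype all IFNb libraries were lower, and the control pair lay farther apart. The falls were -0.22 ± 0.05 and -0.44 ± 0.05. With IFNb in both, Uqcrq was higher in Adar-null than in control cells (0.33 ± 0.05, adjusted p = 4.4e-08). Its interaction of 0.22 ± 0.07 was called (adjusted p = 0.0086), but not without Adar-null IFNb library 2 (0.18, adjusted p = 0.0556) or control IFNb library 2 (0.14, adjusted p = 0.14).

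**Figure D3:**
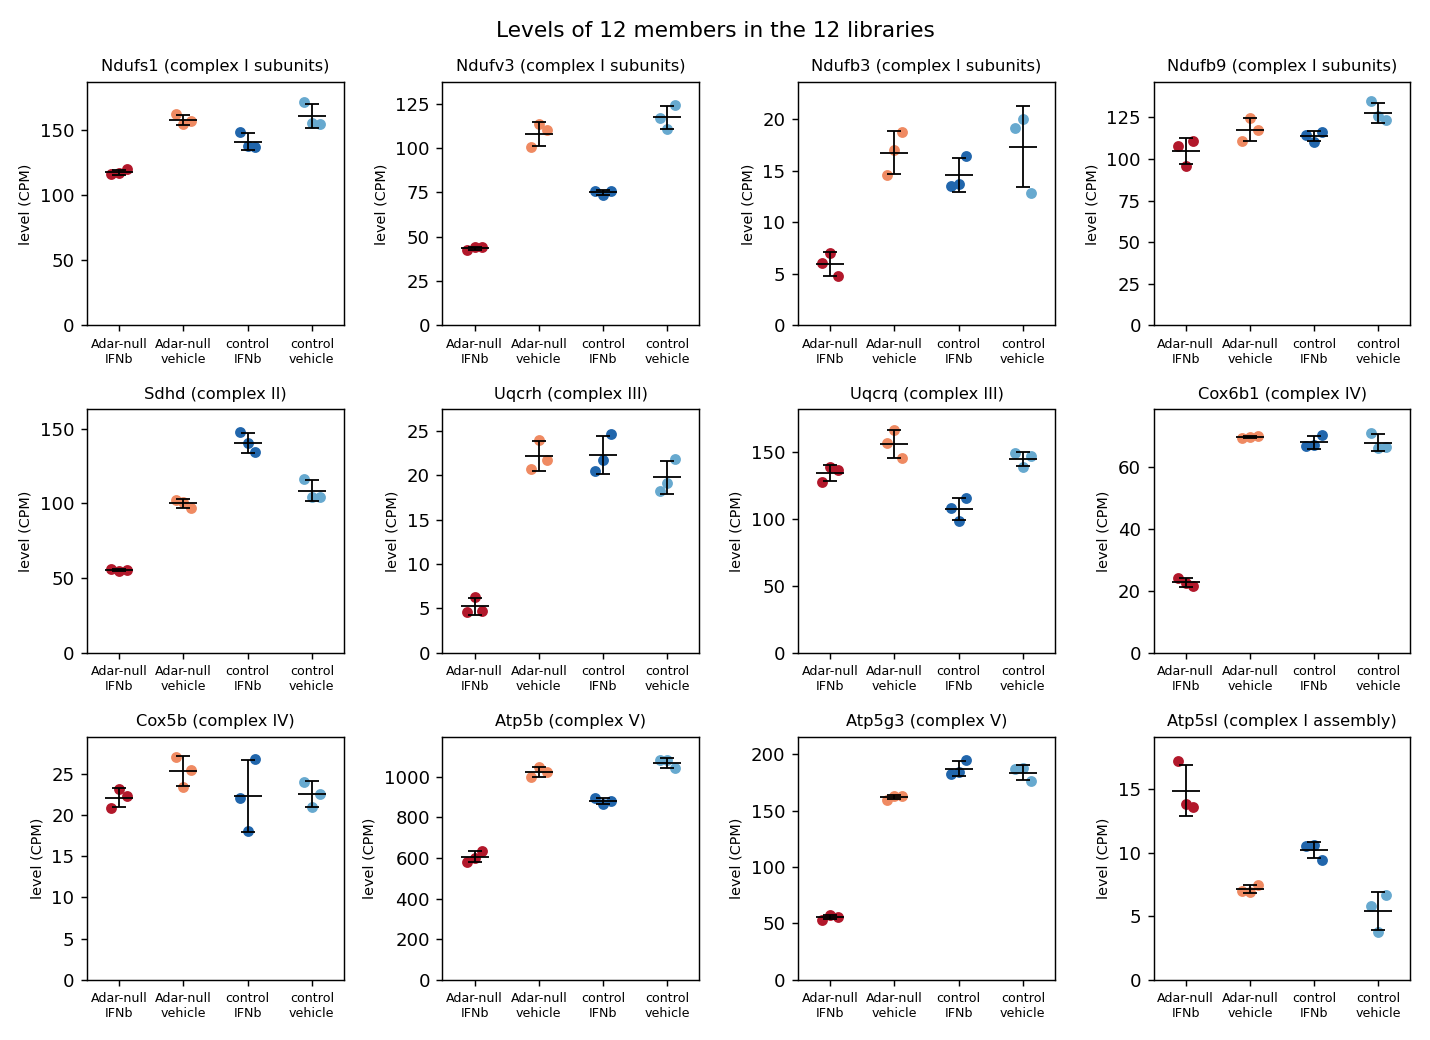
Levels of 12 members in CPM (vertical axes, starting at 0) in the 4 groups. Each point is a library, and bars are the mean and SD of 3 libraries. Uqcrh, Cox6b1 and Atp5g3 are low in the Adar-null IFNb libraries only, Sdhd is low there and high in control cells given IFNb, Ndufv3 falls in both genotypes, and Cox5b and Ndufb9 change little.

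Complex IV, cytochrome c oxidase, reduces oxygen. Its widely expressed subunits showed the lowest median of the 5 complexes in Adar-null cells. Cox6b1 (chr7:30616971-30626114), which faces cytochrome c, had 24.2, 22.4 and 21.4 CPM in Adar-null cells given IFNb, against 69.2, 69.6 and 69.9 CPM in Adar-null cells given vehicle. Control cells had 66.6, 66.9 and 70.4 CPM with IFNb and 71.0, 66.1 and 66.3 CPM with vehicle. The 9 libraries outside the Adar-null IFNb group all lay between 66.1 and 71.0 CPM. The change was -1.62 ± 0.08 in Adar-null cells (adjusted p = 8.0e-37) and 0.00 ± 0.07 in control cells (adjusted p = 0.97), with an interaction of -1.63 ± 0.11 (adjusted p = 2.4e-27).

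Cox7b and Cox7a2, small membrane subunits, and Ndufa4, a subunit first assigned to complex I, were of the same kind. Cox7a2 had 20.6, 20.3 and 20.6 CPM in Adar-null cells given IFNb, against 59.6, 66.3 and 57.2 CPM in Adar-null cells given vehicle, a change of -1.58 ± 0.09. Cox7b had 9.66, 9.62 and 9.02 CPM in Adar-null cells given IFNb, against 25.4, 27.7 and 20.9 CPM in Adar-null cells given vehicle (-1.40 ± 0.13). Ndufa4 had 29.7, 30.2 and 36.1 CPM in Adar-null cells given IFNb, against 77.3, 81.3 and 74.0 CPM in Adar-null cells given vehicle (-1.28 ± 0.08). In each case the groups were apart by more than the spread within them. In control cells Cox7b (0.19 ± 0.10) and Ndufa4 (-0.06 ± 0.07) were not called. Cox7a2 was called lower there at -0.17 ± 0.07, a call lost on leaving out control IFNb library 2 (-0.15, adjusted p = 0.109), control IFNb library 3 (-0.17, adjusted p = 0.0671) or control vehicle library 2 (-0.15, adjusted p = 0.106). DESeq2 did not call it either (adjusted p = 0.10).

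Cox8a, Cox6a1 and Cox4i1 had the highest mean levels of the complex per kilobase of exon, at 187, 127 and 111 CPM, and fell less than 2-fold. Cox4i1, the largest subunit encoded in the nucleus, had 127, 124 and 133 CPM in Adar-null cells given IFNb, against 195, 213 and 201 CPM in Adar-null cells given vehicle (-0.67 ± 0.05). Cox8a changed by -0.83 ± 0.06 in Adar-null and -0.36 ± 0.05 in control cells. Cox6a1 changed by -0.60 ± 0.06 and -0.24 ± 0.06. The control value of Cox4i1, -0.14 ± 0.05, was not called without control IFNb library 2 (-0.10, adjusted p = 0.12) or control vehicle library 3 (-0.12, adjusted p = 0.0671).

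Cox5a and Cox5b are peripheral subunits on the matrix side. Cox5a had 22.9, 28.1 and 31.96 CPM in Adar-null cells given IFNb, against 48.0, 53.4 and 49.0 CPM in Adar-null cells given vehicle (-0.85 ± 0.09). Cox5b had 20.8, 23.2 and 22.3 CPM in Adar-null cells given IFNb and 27.1, 23.5 and 25.5 CPM in Adar-null cells given vehicle. For Cox5b the groups were apart by less than the spread within them, and its change of -0.19 ± 0.11 was not called (adjusted p = 0.13), though it was with library size alone (-0.28, adjusted p = 0.0261). The difference between Cox5a and Cox5b was not tested.

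Isoforms of complex IV that are known from heart and skeletal muscle, testis or low oxygen were rare. Over all 12 libraries Cox4i2 had 1 count, Cox8b 7, Cox6b2 8, Cox7a1 29 and Ndufa4l2 73. Cox6a2 (chr7:128205435-128206366), the muscle isoform, passed the filter only through the groups in which it was higher. Its counts per library were 18, 17 and 19 in Adar-null cells given IFNb, 7, 9 and 9 in Adar-null cells given vehicle, 2, 0 and 0 in control cells given IFNb, and 7, 9 and 9 in control cells given vehicle. The control IFNb libraries were lowest and the Adar-null IFNb libraries highest, with no overlap between them and the vehicle libraries. As ratios of summed counts scaled by library size, Adar-null cells given IFNb were 2.21 times Adar-null cells given vehicle (exact 95% counting interval 1.35 to 3.71) and 28.2 times control cells given IFNb (7.44 to 239). Control cells given IFNb were 0.0726 times control cells given vehicle (0.00833 to 0.291). These intervals cover counting error only. The summed level of 6 striated muscle markers was 2.65 to 4.21 CPM in Adar-null cells given IFNb, 2.21 to 3.08 CPM in Adar-null cells given vehicle, 1.60 to 2.63 CPM in control cells given IFNb and 1.99 to 3.16 CPM in control cells given vehicle, with Myh2 and Tnnt3 at 0 in all 4 groups. Within that sum markers moved in opposite directions. In the same order of groups, Ckm had 8, 31, 4 and 34 counts, and Tnnt2 had 42, 7, 29 and 6. Exons of Itgad lie across those of Cox6a2 on the other strand, and Itgad had 1, 2, 0 and 1 counts in the same 4 groups.

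In complex V, Atp5a1 and Atp5b form the catalytic F1 head. Atp5b, which carries the catalytic sites, had 581, 601 and 635 CPM in Adar-null cells given IFNb, against 1000.5, 1049.9 and 1023 CPM in Adar-null cells given vehicle. Control cells had 895, 864 and 882 CPM with IFNb, against 1083, 1085 and 1041 CPM with vehicle. Both pairs of groups were apart, by -0.76 ± 0.04 and -0.28 ± 0.04, and the interaction was -0.48 ± 0.05 (adjusted p = 2.8e-14).

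Its partner Atp5a1 had 387, 376 and 405 CPM in Adar-null cells given IFNb, against 537, 553 and 552 CPM in Adar-null cells given vehicle. Control cells had 626, 617 and 594 CPM with IFNb, against 581, 574 and 560.2 CPM with vehicle. The fall in Adar-null cells was -0.49 ± 0.04. The small rise in control cells, 0.10 ± 0.04 (adjusted p = 0.028), depends on the scale: it was not called with library size alone (0.02, adjusted p = 0.646), upper-quartile scaling (0.07, adjusted p = 0.119) or no filter (0.09, adjusted p = 0.0697). It was also lost without control IFNb library 1 (0.08, adjusted p = 0.103) or 2 (0.10, adjusted p = 0.0597), and without control vehicle library 2 (0.10, adjusted p = 0.0566) or 3 (0.08, adjusted p = 0.105). Atp5d, the delta subunit of the central stalk, fell by 0.70 ± 0.05 on the log2 scale in Adar-null cells. In control cells its value of -0.13 ± 0.05 was called, but not by DESeq2 (adjusted p = 0.0999), nor without control IFNb library 2 (-0.09, adjusted p = 0.207), control vehicle library 2 (-0.10, adjusted p = 0.165) or control vehicle library 3 (-0.12, adjusted p = 0.0823).

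The c ring, through which protons pass, is encoded by 3 genes whose mature proteins are the same. Per kilobase of exon, their mean level was 67.5 CPM for Atp5g3, 1.85 CPM for Atp5g1 and 0.779 CPM for Atp5g2. Atp5g3 (chr2:73908447-73912464), the source with the highest level, had 53.4, 57.6 and 56.0 CPM in Adar-null cells given IFNb, against 159.7, 163 and 163 CPM in Adar-null cells given vehicle. Control cells had 183, 184 and 195 CPM with IFNb and 187, 188 and 177 CPM with vehicle. The Adar-null IFNb libraries lay far below all others, and the control groups overlapped. The change was -1.54 ± 0.06 in Adar-null cells (adjusted p = 6.3e-51) and 0.03 ± 0.05 in control cells (adjusted p = 0.64), with an interaction of -1.57 ± 0.07 (adjusted p = 1.9e-40). Atp5g1 (-0.31 ± 0.18) and Atp5g2 (-0.20 ± 0.46) were not called in Adar-null cells, though Atp5g1 was with library size alone (-0.40, adjusted p = 0.0419). Atp5g2 had 16 to 27 counts per group, so a moderate change was not detectable at this depth, and 39.6% of its 37-base words occur in other genes.

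In the peripheral stalk, which holds the F1 head still, Atp5o (-0.997 ± 0.09) and Atp5j (-0.97 ± 0.09) fell more than Atp5h (-0.61 ± 0.15) and Atp5f1 (-0.44 ± 0.07) in Adar-null cells, with no test between them. Atp5j holds the YY1 letters. Exons of Gabpa, a transcription factor of the ETS family, lie across those of Atp5j on the other strand. Atp5j2, a membrane subunit, had 4.55, 5.71 and 5.38 CPM in Adar-null cells given IFNb, against 12.3, 12.01 and 12.1 CPM in Adar-null cells given vehicle (-1.21 ± 0.18). Its call in control cells (-0.36 ± 0.16, adjusted p = 0.045) was lost in DESeq2 (0.129), limma-voom (0.0541), without the filter (0.0608) and with only the groups compared (0.0558), all as adjusted p. Leaving out control IFNb library 1 or 2, or control vehicle library 1 or 3, also ended it, at log2 values of -0.36, -0.25, -0.35 and -0.22.

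Among the 3 members outside the complexes, Cox7a2l (chr17:83501917-83514333) had 38.3, 43.3 and 45.2 CPM in Adar-null cells given IFNb, against 65.8, 69.6 and 67.6 CPM in Adar-null cells given vehicle. Control cells had 40.2, 47.1 and 39.7 CPM with IFNb, against 62.0, 63.0 and 66.8 CPM with vehicle. It fell by nearly the same amount in both, -0.67 ± 0.08 and -0.59 ± 0.08, with an interaction of -0.08 ± 0.11 that was not called (adjusted p = 0.52). Its complex IV paralog Cox7a2 had an interaction of -1.41 ± 0.11. Atp5s was not called in Adar-null cells (0.16 ± 0.19) and was lower in control cells (-0.48 ± 0.19, adjusted p = 0.026), with a called higher interaction. DESeq2 called neither (adjusted p = 0.0898 for control cells and 0.106 for the interaction), nor did limma-voom (0.0535 and 0.0513). The control call was also lost without control IFNb library 2 (-0.37, adjusted p = 0.138) or control vehicle library 1 (-0.25, adjusted p = 0.347). The interaction was lost without either of these (0.52 and 0.40), and without Adar-null IFNb library 2 (0.53) or Adar-null vehicle library 2 (0.49).

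**Figure D4:**
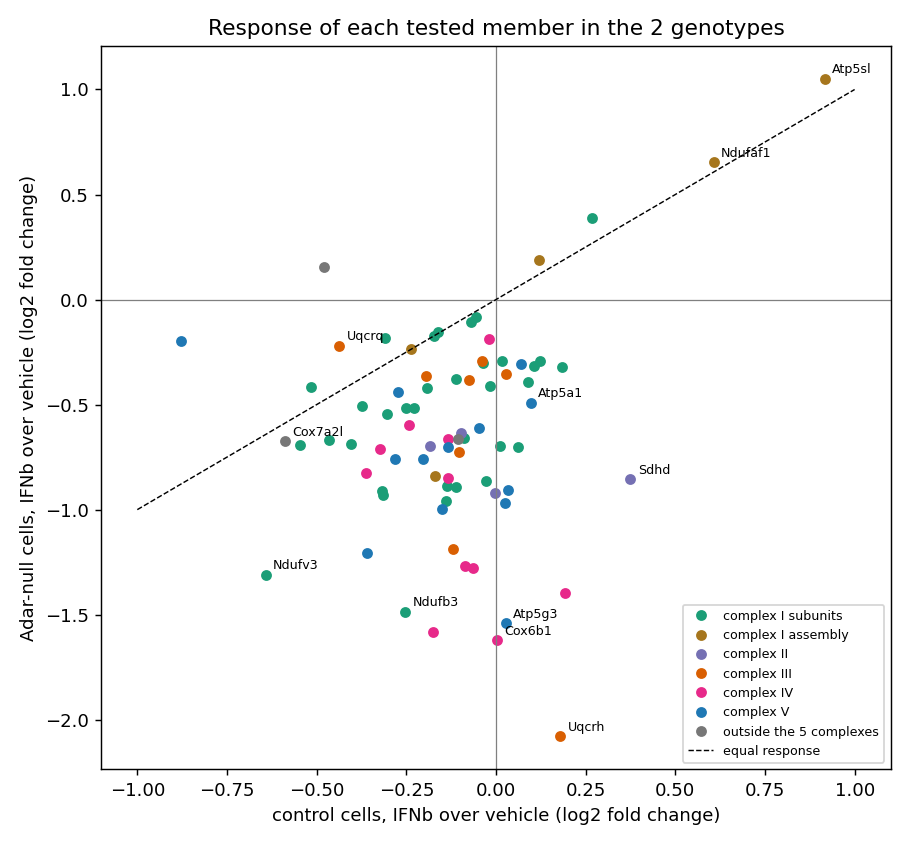
Log2 fold change with IFNb over vehicle of 78 members in Adar-null cells (vertical axis) against that in control cells (horizontal axis), coloured by complex, without Cox6a2. The dashed line marks equal responses. Uqcrh, Cox6b1 and Atp5g3 lie near 0 in control cells and at -2.08, -1.62 and -1.54 in Adar-null cells, and Atp5sl, Ndufaf1 and Cox7a2l lie near the dashed line.

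Set directly against control cells, both with IFNb, Adar-null cells had 57 members lower, 3 higher and 19 not called, beside 36.2% lower and 36.4% higher among all genes (72.6% called). The members' median was -0.44. At least 2-fold lower were 9 of them, a smaller share than the 12.6% among all genes. All 57 were also lower in Adar-null cells given IFNb than with vehicle, a comparison that shares the Adar-null IFNb libraries. Uqcrh (-2.08 ± 0.16), Atp5g3 (-1.75 ± 0.05), Cox7b (-1.66 ± 0.13), Cox6b1 (-1.59 ± 0.08) and Cox7a2 (-1.51 ± 0.09) had the lowest values. Sdhd, higher with IFNb in control cells, differed by -1.34 ± 0.06 here. Besides Cox6a2, the members higher in Adar-null cells were Atp5sl (0.54 ± 0.15) and Uqcrq (0.33 ± 0.05). By complex, 25 of 34 complex I subunits, 4 of 4 of complex II, 6 of 8 of complex III, 9 of 11 widely expressed subunits of complex IV and 11 of 13 of complex V were lower.

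Without interferon few members were called between the genotypes. Of the 79 members, 2 were lower in Adar-null cells given vehicle than in control cells given vehicle, and 0 were higher, beside 4.05% lower and 2.47% higher among all genes (6.51% called). Those were Atp5g3 (-0.18 ± 0.05, adjusted p = 0.0061) and Uqcrc1 (-0.17 ± 0.05, adjusted p = 0.017). Atp5g3 had 159.7, 163 and 163 CPM in Adar-null cells given vehicle, against 187, 188 and 177 CPM in control cells given vehicle. Uqcrc1 had 168, 169.9 and 177 CPM in Adar-null cells given vehicle, against 201, 193 and 187 CPM in control cells given vehicle. The groups did not overlap for either gene. DESeq2 called neither (adjusted p = 0.0611 and 0.101). The call of Atp5g3 was lost without Adar-null vehicle library 1 (-0.17, adjusted p = 0.0571) or control vehicle library 2 (-0.16, adjusted p = 0.074). That of Uqcrc1 was lost without Adar-null vehicle library 1 (-0.16, adjusted p = 0.108) or 2 (-0.16, adjusted p = 0.0845), or control vehicle library 1 (-0.14, adjusted p = 0.118) or 2 (-0.17, adjusted p = 0.0658). The median of the members was 0.00.

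**Figure D5:**
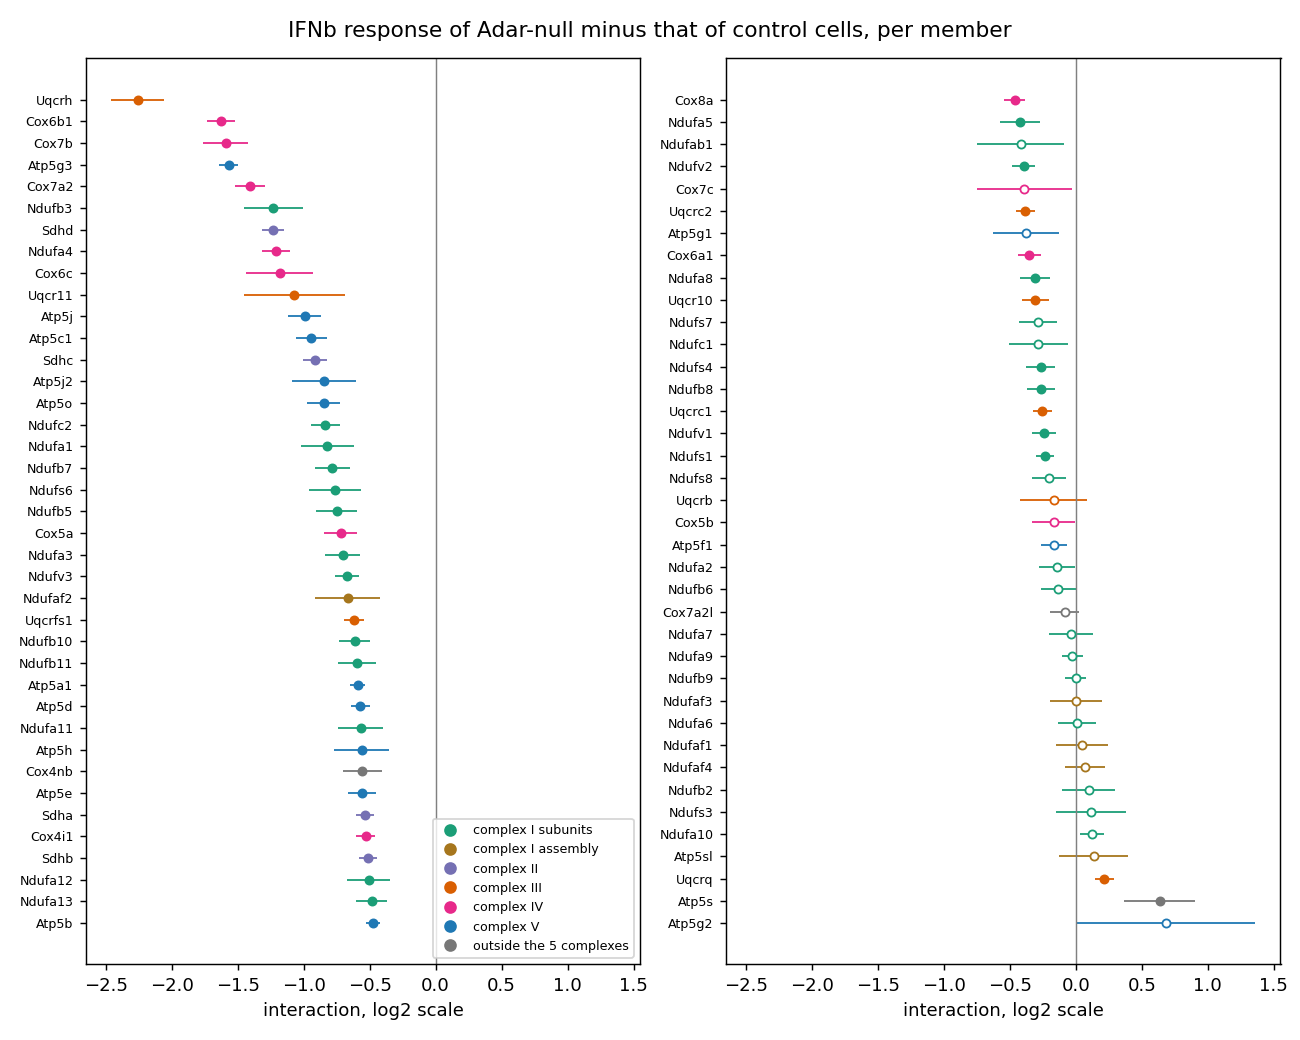
Interaction of 77 tested members on the log2 scale (horizontal axis, change with IFNb in Adar-null cells less the change in control cells), ordered by value and coloured by complex. Bars are standard errors, filled points were called. Uqcrh is lowest at -2.26, and Uqcrq and Atp5s are the called members above 0 among those drawn; Cox6a2, also called above 0, is left out.

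The members with the NRF1 letters did not all move one way in Adar-null cells given IFNb. Uqcr11 (-1.19 ± 0.28), Ndufa11 (-0.66 ± 0.13), Ndufa8 (-0.29 ± 0.08), Cox6a1 and Uqcrc1 were lower, Ndufaf4 (0.19 ± 0.11) and Atp5g2 were not called, and Atp5k and Atp5l were not tested. Of those with the YY1 letters, Atp5j2, Atp5j, Ndufs6 (-0.70 ± 0.14), Ndufc1 (-0.69 ± 0.16), Ndufs7 (-0.52 ± 0.10) and Ndufs4 (-0.38 ± 0.08) were lower, Ndufa9 was not called, and Atp5sl was higher. Between the genes with and without the letters no test was made.

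Within the members, the response of Adar-null cells had little relation to features of the genes, as a description across 78 genes that share libraries and are not independent. Spearman's rho was -0.02 with the share of 37-base words found in other genes, 0.17 with exon length and -0.21 with the level per kilobase. The 11 members that fell at least 2-fold shared 0% to 10.7% of their words (median 2.67%), and the 67 others 0% to 64.8% (median 3.86%). The 10 members with at least 20% shared were Ndufaf2, Atp5g2, Ndufb6, Uqcrb, Ndufa13, Ndufs5, Ndufb11, Atp5h, Cox7c and Ndufs3, and their counts are uncertain. Exons of 29 members overlap another gene on the opposite strand, and the strand setting of the counting is not given in the sources used here, so reads of such partners cannot be told apart.

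Genes that build or feed the chain moved in both directions when Adar-null cells given IFNb were set against Adar-null cells given vehicle. Their counts, many over a few genes, stand beside 36.6% higher and 35.7% lower among all genes. Of 19 tested factors of complex IV assembly, 10 were higher and 5 lower (median 0.17). Cox18, which inserts a core subunit into the membrane, averaged 24.5 ± 4.18 CPM in Adar-null cells given IFNb and 9.24 ± 1.39 CPM in Adar-null cells given vehicle, a rise of 1.39 ± 0.14. Of 11 genes of ubiquinone synthesis, 6 were higher and 2 lower (median 0.25), with Coq10b, a ubiquinone-binding protein, at 1.39 ± 0.15 and Coq7, a hydroxylase of the pathway, at -1.14 ± 0.16. Assembly factors of complex I outside the symbol rule gave 2 higher and 1 lower of 6, those of complex II 2 higher and 1 lower of 4, and partners of complex III 1 higher and 2 lower of 8. Cyc1, counted among these partners, encodes cytochrome c1, itself a subunit of complex III whose symbol the rule does not take. It was lower (-0.13 ± 0.05). Of 5 assembly and regulatory genes of complex V, Atpif1, its inhibitor, was lower (-0.91 ± 0.10), and Atpaf2, an F1 assembly factor, was higher (0.68 ± 0.09). Usmg5, a membrane subunit, was also called lower (-1.20 ± 0.37), but it passed the filter only through the groups in which it was higher. Its counts were 26 in Adar-null cells given IFNb and 62 in Adar-null cells given vehicle. Control cells had 49 with IFNb and 47 with vehicle.

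Of the enzymes upstream of the chain, most were lower, where 35.7% of all genes were lower and 36.6% higher in the same comparison. Of 18 genes of pyruvate dehydrogenase and the tricarboxylic acid cycle, 15 were lower and 0 higher in Adar-null cells given IFNb than with vehicle (median -0.38), and 13 had a lower interaction (30.7% of all genes). In control cells 8 were lower and 2 higher, beside 26.5% of all genes each way. Idh2, a mitochondrial isocitrate dehydrogenase, averaged 46.7 ± 1.41 CPM in Adar-null cells given IFNb and 217 ± 13.0 CPM in Adar-null cells given vehicle, a fall of -2.22 ± 0.06. Pcx, pyruvate carboxylase, fell by 1.79 ± 0.11 and in control cells by 1.23 ± 0.11 on the log2 scale. Of 13 genes of import, porins and carriers, 9 were lower and 0 higher (median -0.27). Vdac1, the main outer-membrane porin, averaged 93.9 ± 5.78 CPM in Adar-null cells given IFNb and 337 ± 13.6 CPM in Adar-null cells given vehicle (-1.84 ± 0.05). Slc25a4, an ADP/ATP carrier, fell by 1.29 ± 0.04 on the log2 scale. Of 14 regulators of mitochondrial biogenesis, 6 were higher and 6 lower (median -0.05): Pprc1, a coactivator, rose by 0.95 ± 0.05 in Adar-null and 0.82 ± 0.06 in control cells, and Ppargc1b, another coactivator, fell by 0.73 ± 0.17 on the log2 scale in Adar-null cells. With vehicle alone, the related coactivator Ppargc1a was lower in Adar-null than in control cells (-0.64 ± 0.07). In that comparison Vdac1, Tomm20, Idh3a and Ogdh were also lower, by smaller amounts, and Pprc1 was higher (0.29 ± 0.06). These lists, like the members, were chosen with earlier results of these data known, and no test over a list was made.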

How the data were processed

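RNA from 12 libraries in 4 groups of 3 was examined. Ribosomal RNA was removed from total RNA, and directional libraries were read as paired ends of 37 bases, per the labels' protocols. The submitters' processing notes name bcl2fastq 2.19.1, Trimmomatic 0.33, Bowtie2 2.2.4, HTSeq 0.6.1p1, DESeq2 and build mm10; the sources used here give neither their order and settings nor the annotation and strand setting. The authors deposited whole-number counts per gene, with no normalization. Library totals were 5375649 to 7153480 counts, and replicate libraries differed by more than counting noise (chi-square per degree of freedom 1.47 to 3.23), so each counts once.

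From these counts, levels were computed as TMM-scaled CPM. Genes passing filterByExpr (11561 of 23336) were fitted over all 4 groups with edgeR 4.0.16 (limma 3.58.1, R 4.3.3) by its quasi-likelihood test, tested on simulated data first, and p-values were adjusted by Benjamini-Hochberg over all genes tested in a comparison. Fold changes are log2, with standard errors derived from the test statistic and held to at least the counting error. For changes near 0 they can therefore be counting error alone. Limits for a count of 0 take 3 counts per group, and intervals (95%) and limits cover counting error only. Symbols were matched to RefSeq for 86 members directly and for 4 by an older name. The motif letters were settled on after matches to longer forms of the NRF1 and YY1 letters had been seen. The members and lists were chosen with earlier results of these data known. Genes named with values are Adar, all of complex II, the 3 members of each complex with the highest mean CPM, those with the largest called rise and fall in each comparison, sets of isoforms, members that did not pass the filter and up to 3 called genes of each list. Ndufs3, Ndufa8, Ndufa9, Ndufa11, Ndufc1, Ndufs4, Ndufs6, Ndufs7, Uqcrfs1, Uqcr11, Atp5s and the peripheral stalk were added after their values were seen. Some genes covered by these rules are not reported here. Alternatives were DESeq2 1.42.0, limma-voom, other scalings, no filter, Rn45s left out, only the groups compared, a 1.5-fold threshold, a replicate block and leaving out each library.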

Additional observations from a re-analysis of the deposited data

Results flagged for a closer look

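The response to IFNb differed between Adar-null and control cells, by the interaction in edgeR's quasi-likelihood test with Benjamini-Hochberg adjustment over all genes tested, for 52 members with a lower value and 3 with a higher one. Among all genes, 30.7% were lower and 28.6% higher (59.3% called). The 3 higher members include Cox6a2, which passed the filter only through the groups in which it was higher. Interaction values are on the log2 scale, the change with IFNb in Adar-null cells less the change in control cells.

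The called interactions listed here are not complete. Cox6a2 and the members added after their values were seen are among those left out. In complex I the listed ones were -0.23 for Ndufs1, -0.67 for Ndufv3 and -1.23 for Ndufb3, with -0.67 for the assembly factor Ndufaf2. In complex II they were -0.54 for Sdha, -0.51 for Sdhb, -0.92 for Sdhc and -1.23 for Sdhd. In complex III they were -2.26 for Uqcrh, -0.38 for Uqcrc2, -0.25 for Uqcrc1 and 0.22 for Uqcrq. In complex IV they were -1.63 for Cox6b1, -1.59 for Cox7b, -1.41 for Cox7a2, -1.21 for Ndufa4, -0.72 for Cox5a, -0.53 for Cox4i1, -0.46 for Cox8a and -0.35 for Cox6a1. In complex V they were -1.57 for Atp5g3, -0.85 for Atp5j2, -0.59 for Atp5a1, -0.57 for Atp5d and -0.48 for Atp5b.

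Among the genes around the chain, higher interactions were 1.36 for Sdhaf1 and 0.59 for Acn9 (complex II assembly), 0.31 for 4930455C21Rik, 0.72 for Cox18 and 0.45 for Surf1 (complex IV assembly), 0.75 for Atpaf2, 0.69 for Gabpb1, 1.06 for Coq10b and 0.80 for Coq4. Lower ones were -0.26 for Cyc1, -0.47 for Cox19, -1.21 for Atpif1, -1.12 for Usmg5, -1.34 for Vdac1, -1.20 for Slc25a4, -0.74 for Slc25a5, -1.84 for Idh2, -0.81 for Fh1, -0.78 for Idh3a, -1.37 for Ppargc1b, -0.81 for Esrra and -0.89 for Coq7. Cyc1 is itself a subunit of complex III that the symbol rule does not take. The value of Usmg5 carries the limit of the filter given above.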

How the results depend on the processing

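Among the values of named members under the alternatives, 4344 kept direction and call, 185 lost the call, 36 gained it and 0 called values changed direction. Testing against a 1.5-fold change made 95 of the losses. That threshold left 30 members called in Adar-null cells (29 lower), 19 between genotypes with IFNb, 1 in control cells, 0 between genotypes with vehicle and 15 in the interaction, and over all genes 3301, 3306, 980, 17 and 2592. With library size alone the median in Adar-null cells was -0.87 for complex II and -0.85 for complex V, and that of complex II in control cells -0.13. The summed levels then changed by -0.58 for complex I, 0.10 for its assembly factors, -0.81, -0.51, -0.96 and -0.82 for complexes II to V in Adar-null cells, and by -0.26, -0.11, -0.18, -0.23 and -0.20 for complexes I to V in control cells; upper-quartile scaling gave -0.061 for complex II there. Library size alone shifted the median of all genes by -0.0904 in Adar-null cells, and upper-quartile scaling shifted it by at most 0.0381. Without the filter the medians of complex IV were -0.67 in Adar-null cells, -0.41 between genotypes with IFNb and -0.46 in the interaction, with more rare isoforms in the list. DESeq2 called 0 members and 324 genes between genotypes with vehicle.

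Leaving out 1 library gave 66 to 68 members called in Adar-null cells, 59 to 62 between genotypes with IFNb, 23 to 32 in control cells, 0 to 3 between genotypes with vehicle and 51 to 56 in the interaction. Over all genes these were 7971 to 8447, 8001 to 8466, 5533 to 6178, 308 to 801 and 6526 to 6702. Between genotypes with IFNb the median spanned -0.77 to -0.69 for complex II and -0.75 to -0.64 for complex IV. Between genotypes with vehicle, 0 members and 393 genes were called without Adar-null vehicle library 1, 1 and 463 without Adar-null vehicle library 2, and 0 and 308 without control vehicle library 2. The replicate block gave 68, 60, 32, 2 and 55 members called in Adar-null cells, between genotypes with IFNb, in control cells, between genotypes with vehicle and in the interaction. Over all genes it gave 8338, 8347, 6075, 711 and 6816. Replicate numbers are only shared numbers: the 18 same-numbered pairs correlated at -0.0942 to 0.0546 and 0 libraries correlated best with their own number. Depth limits members with few counts, such as Atp5g2.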
